A study of Mus musculus with 4 samples.

Results

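The genes described here encode the DNA replication machinery, measured in H460 cells after farnesol. They are 41 genes, taken by name for their role in replication, from a list drawn up with earlier results of these data known. Every probe of the array that carried 1 of these names was taken, which gave 57 of 41000 probes. All 57 passed the filter on dim probes, so all 41 genes were tested, among 28598 features of which 17872 were named genes. H460 is an established human lung carcinoma line, and a single line was used. The farnesol cells received 250 µM of farnesol (FOH), an isoprenoid alcohol, for 4 h, and the control cells received the vehicle dimethyl sulphoxide (DMSO). Both groups grew in the same serum-supplemented medium. There were duplicate experiments (replicates 1 and 2), each with a matched pair of RNAs, and each pair was put on 2 two-colour arrays with the dyes exchanged. The samples are labelled as mouse, but the treatment protocol describes H460 as human and the gene names on the array are human ones, so the data were read as human.

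Before S phase, the origin recognition complex (ORC), CDC6 and CDT1 load the MCM2 to MCM7 helicase onto origins, and geminin (GMNN) blocks reloading by binding CDT1. CDC7 kinase, CDC45 and MCM10 then help to start the helicase, the RPA complex coats the single strands, and polymerase alpha with primase lays down primers. The RFC complex loads the PCNA clamp, on which polymerases delta and epsilon extend the strands, while FEN1 and LIG1 join the lagging strand fragments. Ribonucleotide reductase (RRM1 and RRM2) and thymidylate synthase (TYMS) supply the building blocks. Many of these genes are known targets of E2F transcription factors and are transcribed most at the border of G1 and S phase.

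Most replication genes were modestly lower with farnesol, and RPA1 and RFC4 stood well below the rest. Of the 41 genes, 28 were lower in both replicates, against 30.1% of all tested features, and 4 were higher in both, against 35.4%. The other 9 genes had replicates that pointed in opposite directions, against 34.5% of features. With median centring in place of loess normalization the same counts were 32 lower, against 36.3% of features, and 0 higher, against 29.6%. With the probes of a gene averaged they were 29 lower, against 30.8%, and 1 higher, against 34.7%. The median log2 ratio of farnesol over vehicle was -0.26, with -0.08 in replicate 1 and -0.42 in replicate 2. The median over all tested features was 0.01.

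On all 4 arrays 23 members were lower, against 21.9% of features, and 4 were higher, against 20.9%. RPA1 and RFC4 were at least 2-fold lower in both replicates and on all 4 arrays, against 0.238% of features, and 0 members were as much higher, against 0.657%. By limma's moderated test with Benjamini-Hochberg adjustment over all features, 0 members passed the threshold of 0.05 (lowest adjusted p = 0.192), against 0.0105% of features. At an unadjusted p under 0.05 limma gave 14 lower members, against 10.8% of features, and 0 higher, against 3.71%. When limma was run on the 4 arrays with the replicate as a random block, 9 members passed, all lower, against 7.57% of features that were lower and 10.1% in either direction. That fit counts the exchanged-dye arrays of a replicate as partly independent. These are bulk RNA values, in which fewer cells in S phase and less RNA per cell cannot be told apart.

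A comparison with features of like brightness was added after the values had been seen. Of the 5033 features at least as bright as the median member, 41.1% were lower in both replicates, against 76.2% of the 21 members that bright. Their median log2 ratios were -0.37 for those members and -0.03 for those features.

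**Figure D1:**
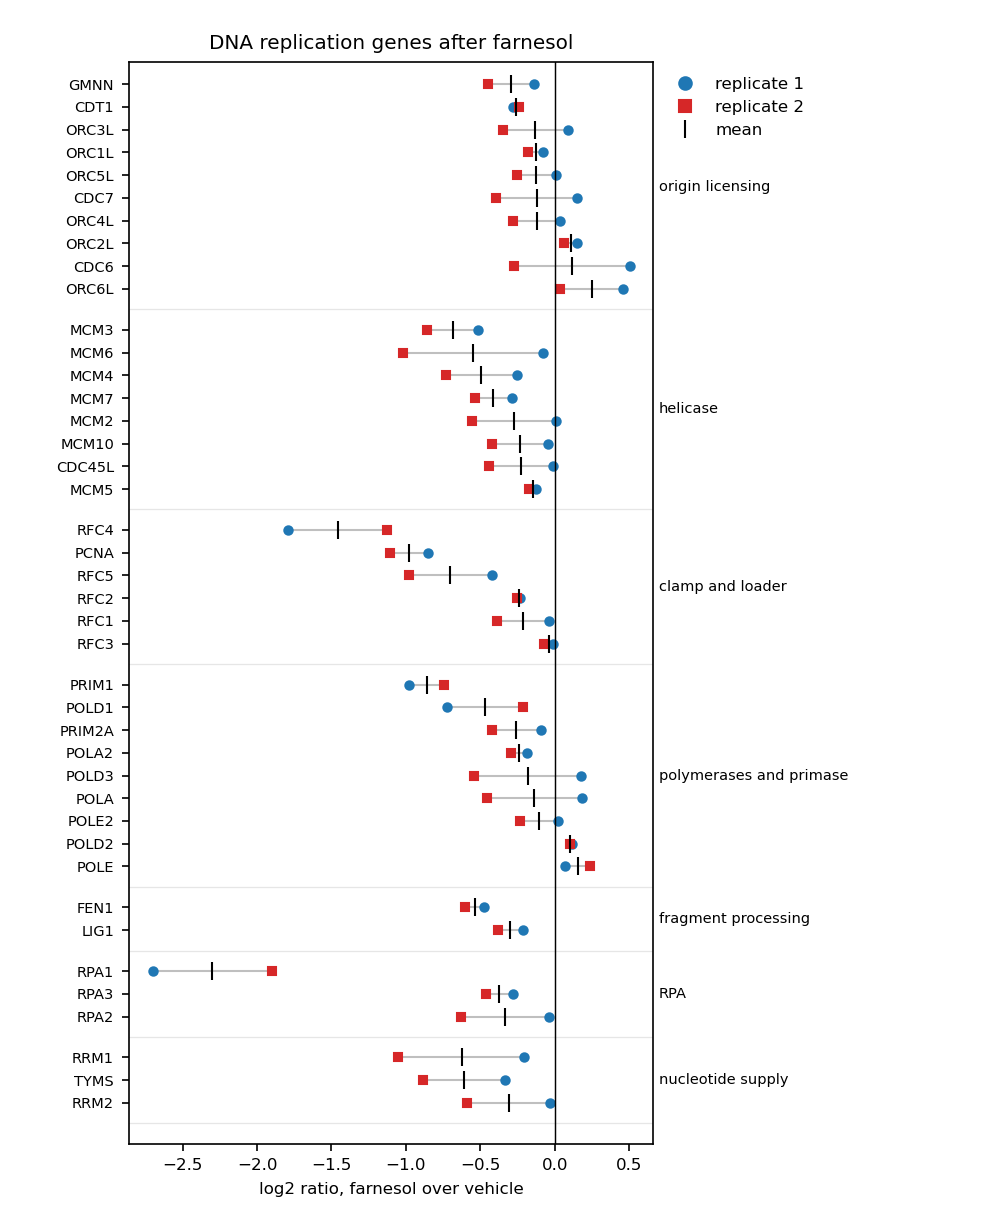
Log2 ratio of farnesol over vehicle (horizontal axis) for each of the 41 replication genes, grouped by role and ordered by mean; circles are replicate 1, squares replicate 2 and ticks their mean. RPA1 lies at -2.30 and RFC4 at -1.46, while 4 genes (ORC6L, POLE, ORC2L and POLD2) have both replicates above 0. Each gene is shown by its brightest probe, and the dimmer probes of ORC6L, POLE and POLD2 do not have both replicates above 0.

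The subunits of the RPA complex differed widely in size of response. RPA1, the large subunit that binds single-stranded DNA, had log2 ratios of -2.76 and -2.64 on the arrays of replicate 1 (farnesol in Cy5, then in Cy3) and of -1.84 and -1.96 on those of replicate 2. Its normalized spot intensity was 404.4 and 628.3 in the farnesol RNAs of replicates 1 and 2, against 2631 and 2341 in the vehicle RNAs. The groups did not overlap, and the lower value with farnesol was that of replicate 1. How many of all features had groups without overlap was not counted, here or for the genes below. The mean log2 ratio was -2.30 ± 0.57 (SD, n = 2), a 4.92-fold lower value, with a limma 95% interval of -3.11 to -1.49 (limma adjusted p = 0.192). It had the lowest ratio of all 17872 named genes tested, and it rests on a single probe. In the authors' deposited table, whose header names replicate 1, RPA1 was 7.07-fold lower.

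The partners of RPA1 were far closer to 0. RPA2, the middle subunit, which is phosphorylated in S phase and after damage, had -0.04 in replicate 1 and -0.63 in replicate 2. RPA3, the small subunit, had -0.22, -0.35, -0.37 and -0.56 on the 4 arrays, all below 0 (-0.37 ± 0.13, limma adjusted p = 0.251, and -0.60 under median centring). RPA1 and its nearest partner therefore differed by far more than the SD of either. The span from the lowest to the highest subunit was 1.97 on the log2 scale, against 0.54 for MCM2 to MCM7 and 0.38 for ORC1L to ORC6L.

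The clamp and its loader held the next largest values, and all 6 genes were lower in both replicates, against 30.1% of features. RFC4, a small ATPase subunit of the loader, had log2 ratios of -1.86 and -1.72 on the arrays of replicate 1 and of -1.17 and -1.08 on those of replicate 2. Its intensity was 633.9 and 797.1 in the farnesol RNAs, against 2193 and 1737 in the vehicle RNAs, with no overlap. The mean was -1.46 ± 0.47, or 2.75-fold lower, with a limma 95% interval of -2.14 to -0.78 (limma adjusted p = 0.206). RFC5, another small subunit, had -0.43 and -0.42 in replicate 1 and -0.94 and -1.02 in replicate 2, so its fold was 1.34 in replicate 1 and 1.97 in replicate 2. The remaining loader subunits were nearer 0. RFC2 had -0.24 ± 0.02, RFC1, the large subunit, had -0.21 ± 0.25, and RFC3 had -0.04 ± 0.04, which became 0.011 with a normexp offset of 0. Among the 5 loader subunits the log2 ratios thus spanned 1.42.

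PCNA, the sliding clamp, had log2 ratios of -0.92 and -0.78 in replicate 1 and of -1.16 and -1.06 in replicate 2. Its intensity was 2601 and 2228 in the farnesol RNAs, against 4694 and 4807 in the vehicle RNAs. The separation between groups was wider than the spread within either. The fold was 1.81 in replicate 1 and 2.16 in replicate 2, so PCNA missed the 2-fold count through replicate 1, though it met it under median centring (limma 95% interval of the log2 ratio -1.29 to -0.67). FEN1, the flap endonuclease that binds PCNA, had -0.45, -0.49, -0.64 and -0.56 on the 4 arrays, and -0.42 from its second probe. LIG1, the ligase that seals the fragments, had -0.30 ± 0.12. FEN1 had a mean of -0.54 ± 0.09 (limma adjusted p = 0.198), and both genes were lower on all 4 arrays.

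**Figure D2:**
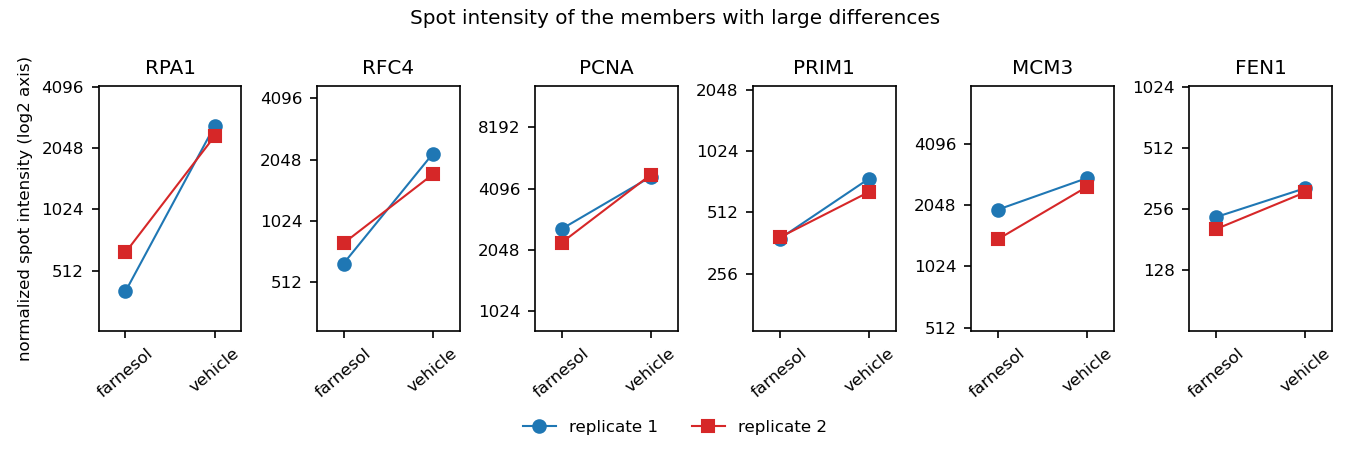
Normalized spot intensity (log2 axis, spanning 16-fold in every panel) of 6 members in the farnesol RNA (left) and its matched vehicle RNA (right); each line joins the 2 RNAs of a replicate, and each point is the geometric mean of 2 arrays. The 6 were picked for large differences, which favours panels without overlap. RFC5, RRM1, TYMS and MCM6, which had lower mean log2 ratios than FEN1, are not shown. Both farnesol values lie below both vehicle values in every panel, and the slope is steepest for RPA1, with 404.4 and 628.3 against 2631 and 2341.

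In the polymerase and primase group 4 of 9 genes (44.4%) were lower in both replicates, against 30.1% of features. Among features at least as bright as the median member the share was 41.1%. The larger values belonged to PRIM1 and POLD1. PRIM1, the catalytic primase subunit, had -0.97 and -0.99 on the arrays of replicate 1 and -0.72 and -0.76 on those of replicate 2. Its intensity was 379.7 and 385.3 in the farnesol RNAs, against 748.4 and 643.8 in the vehicle RNAs. PRIM1 therefore averaged -0.86 ± 0.17, or 1.82-fold lower (limma adjusted p = 0.192), with no overlap between groups. PRIM2A, the other primase subunit, had -0.26 ± 0.23, and its dimmer probe had 0.02 in replicate 1 and -0.14 in replicate 2. The polymerase alpha subunits POLA and POLA2 had -0.14 ± 0.45 and -0.24 ± 0.08. POLA2 had -0.10, -0.27, -0.28 and -0.31 on the 4 arrays, all below 0, while POLA had 0.18 in replicate 1 and -0.46 in replicate 2. POLA2 was dim, with intensities of 91.6 to 118.3, and its mean was -0.53 to -0.21 over 7 other settings of the processing.

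Polymerase delta was uneven too. POLD1, its catalytic subunit, had -0.83 and -0.62 in replicate 1 and -0.20 and -0.22 in replicate 2, and its second probe gave a mean of -0.51, close to the -0.47 of the first. POLD3 had opposite signs in the replicates, at 0.18 and -0.54, while its dimmer probe had 0.04 and 0.08. POLD2, a regulatory subunit, had 0.11 ± 0.01, but -0.08 under median centring and -0.19 from its other probe, which is the probe designed on the reference mRNA. POLE, the catalytic subunit of polymerase epsilon, had 0.08, 0.06, 0.24 and 0.23 on the 4 arrays, with -0.002 under median centring. Its dimmer probes gave 0.03 and 0.02, each with opposite signs in the replicates. Of the POLE probes, the one at 0.03 is designed on the reference mRNA. POLE2 had -0.10 ± 0.18. Hence no direction can be read for POLD2 and POLE.

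All 8 genes of the helicase group had negative mean ratios, a count not made over all features. Of these 7 were lower in both replicates, against 30.1% of features, the exception being MCM2 (0.01 and -0.56). MCM3 had -0.56 and -0.47 in replicate 1 and -0.83 and -0.88 in replicate 2. Its intensity was 1943 and 1390 in the farnesol RNAs, against 2777 and 2517 in the vehicle RNAs, so the groups did not overlap. MCM3 thus averaged -0.69 ± 0.24, or 1.61-fold lower (limma adjusted p = 0.221). MCM7, another helicase subunit, had -0.31, -0.26, -0.50 and -0.58 on the 4 arrays, with a mean of -0.41, or -0.63 under median centring. MCM6 had -0.02 and -0.14 in replicate 1 but -0.90 and -1.13 in replicate 2, which gave it the largest SD of any member (0.66). MCM4 had -0.36 and -0.16 in replicate 1 and -0.91 and -0.56 in replicate 2, and MCM5 only -0.15 ± 0.03. MCM10 and CDC45L, which join the helicase when origins fire, had -0.23 ± 0.26 and -0.23 ± 0.30. Both were near 0 in replicate 1, at -0.04 and -0.01.

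Origin licensing genes lay nearest to 0, with a median of -0.12 over 10 genes. Of these 3 were lower in both replicates (GMNN, CDT1 and ORC1L), against 30.1% of all tested features. A further 2 were higher in both, against 35.4%, and 5 had opposite signs, against 34.5%. GMNN, the licensing inhibitor, had -0.15, -0.14, -0.39 and -0.51 on the 4 arrays, and its target CDT1 had -0.35, -0.21, -0.32 and -0.16. CDT1 averaged -0.26 ± 0.03 and GMNN -0.30 ± 0.22. ORC1L, the ORC subunit that in human cells varies over the cell cycle, had -0.05, -0.10, -0.20 and -0.16 (-0.13 ± 0.07). It was dim, with intensities of 103.9 to 118. ORC3L, ORC4L and ORC5L, of the stable core, had means between -0.13 and -0.12 with a positive value in replicate 1 and a negative one in replicate 2. The dimmer probe of ORC4L was above 0 in both replicates (0.06 and 0.03), and that of ORC5L was below 0 in both (-0.16 and -0.27). ORC6L was the highest member, with 0.43 and 0.49 in replicate 1 but 0.06 and 0.02 in replicate 2 (0.25 ± 0.30). Its dimmer probe gave 0.20 in replicate 1 and -0.15 in replicate 2, with a mean of 0.02. The ratio of ORC6L was 0.05 to 0.27 over 7 other settings of the processing. ORC2L had 0.11 ± 0.06, but -0.013 under median centring. CDC6, the loading factor, had 0.50 in replicate 1 and -0.28 in replicate 2, with the arrays of each replicate alike, and its mean of 0.11 became -0.06 under median centring. CDC7 likewise had 0.15 and -0.39.

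The genes of nucleotide supply were lower mainly in replicate 2. RRM1, the large subunit of ribonucleotide reductase, had -0.22 and -0.18 in replicate 1 and -0.996 and -1.10 in replicate 2 (-0.63 ± 0.60). TYMS, which makes thymidylate, had -0.46 and -0.20 in replicate 1 and -0.91 and -0.86 in replicate 2 (-0.61 ± 0.39, limma adjusted p = 0.325). Both genes were below 0 on all 4 arrays, though the spread between replicates was near the size of the mean for RRM1. RRM2, the small subunit, was measured by 2 probes of almost equal brightness. The slightly brighter one, which stood for the gene, had -0.03 in replicate 1 and -0.59 in replicate 2 (-0.31 ± 0.39). The other had -0.75 and -0.90 (-0.82 ± 0.10). In replicate 1 the probes of RRM2 thus disagreed by more than the arrays did, and RRM2 was the only one of 14 members with several probes whose probes differed by more than 0.5 on the log2 scale.

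**Figure D3:**
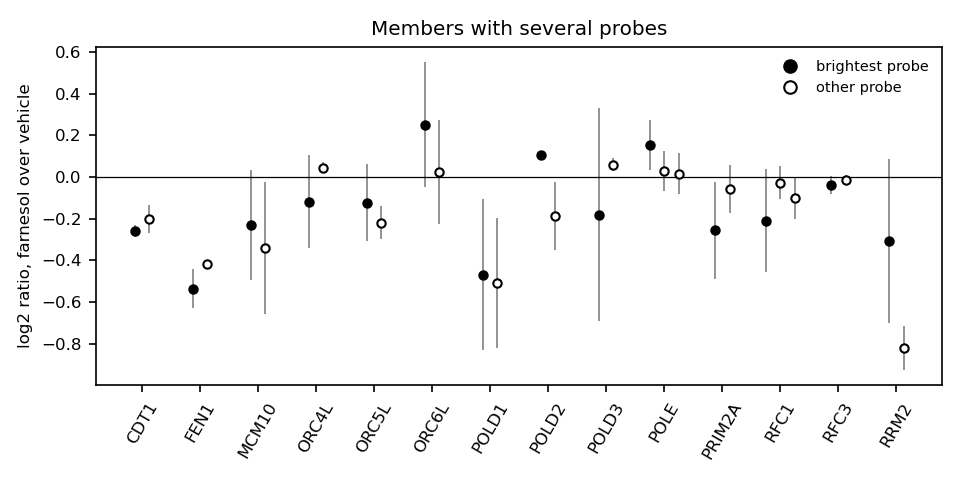
Mean log2 ratio of farnesol over vehicle for each probe of the 14 members that had several; filled points are the brightest probe, open points the others, and bars are the SD of 2 replicates. The probes of RRM2 lie 0.51 apart, those of POLD1 0.04, and the probes of POLD2, POLD3 and ORC4L lie on either side of 0.

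The replicates differed by more than the technical error. The exchanged-dye arrays of a replicate differed by a median of 0.08 on the log2 scale over members, while replicates 1 and 2 differed by a median of 0.34. In 35 of 41 members the difference between replicates was larger than that between the arrays of either one, a count not made over all features. Over all features the arrays correlated at 0.94 within a replicate and at 0.63 to 0.68 between replicates. The median SD of the replicates was 0.24 for members, against 0.08 for all features. Among those at least as bright as the median member it was 0.30 for members and 0.18 for features. Replicate 2 was the lower of the replicates in 35 of 41 members, against 48.8% of features. The exceptions were RPA1, RFC4, PRIM1, POLD1, CDT1 and POLE, so that of the 4 members with the lowest means only PCNA was lower in replicate 2. In replicate 1 alone 28 members had a ratio below 0, and in replicate 2 alone 37 did, against 47.1% and 47.6% of features. What made the replicates differ was not tested.

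**Figure D4:**
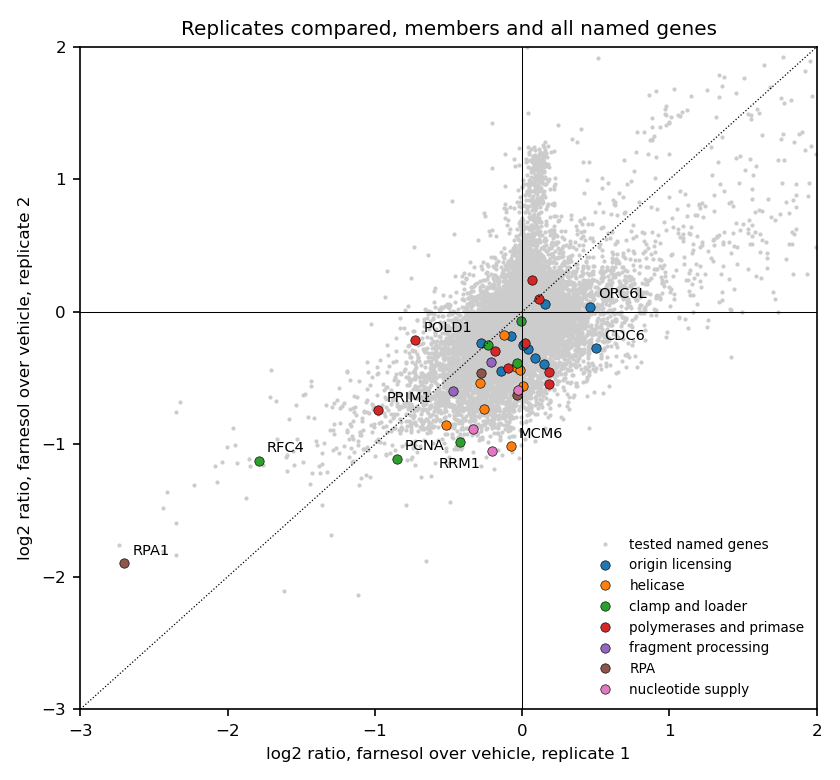
Log2 ratio of farnesol over vehicle in replicate 1 (horizontal) against replicate 2 (vertical) for the members, coloured by role, over all 17872 tested named genes in grey; the dotted line marks equal values. The axes run from -3 to 2, which leaves out 128 named genes and 0 members. Most members sit below the dotted line, while RPA1, RFC4, PRIM1 and POLD1 sit above it.

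The authors' deposited table lists 7018 probes with a p-value of at most 0.001, and its ratios followed those of the replicate 1 arrays. It holds 18 of the 57 member probes (31.6%), for 15 genes, against 17.1% of all probes on the array. The latter share includes dim probes, whereas all 57 member probes passed the filter, so the shares are not of like brightness. Of these probes 15 were lower with farnesol and 3, for CDC6 and ORC6L, were higher in the authors' deposited table, while 57.8% of the whole table was lower. The authors' deposited table gives RFC4 as 3.57-fold lower, PRIM1 as 2.08-fold lower, PCNA as 1.77-fold lower and CDC6 as 1.48-fold higher. Of the RRM2 probes it holds only the one with the lower ratio, at 1.74-fold lower. These entries rest on replicate 1, so they are not a further measurement.

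Other genes of replication and S phase were read from a list of 49 names, of which 48 were on the array and tested. Of these 32 were lower in both replicates, against 30.1% of features, and 4 higher, against 35.4%. Under median centring 36 were lower, against 36.3%, and 1 higher, against 29.6%. Their median log2 ratio was -0.26. Limma called 0 at the adjusted threshold of 0.05, and 23 had an unadjusted p under 0.05, all lower, against 10.8% of features. With the replicate as a random block limma called 17, all lower, against 7.57%.

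Nucleotide supply had the lowest median of its groups, -0.41, with 7 of 8 genes lower in both replicates, against 30.1% of features. CTPS, which makes CTP, had -0.82 in replicate 1 and -0.89 in replicate 2 (-0.86 ± 0.05, limma adjusted p = 0.192), and DTYMK, which phosphorylates thymidylate, had -0.84 and -0.52. SHMT1, of the folate cycle that feeds thymidylate synthesis, had -0.47 ± 0.17, but -0.20 when its probes were averaged. CTPS, DTYMK and SHMT1 were lower on every array, and CTPS had the smallest spread of them.

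At the fork, TOP2A, which untangles the copies, had -0.73 and -1.16. ASK, the array's name for the CDC7 activator DBF4, had -0.50 ± 0.31, TIMELESS, of the fork protection complex, had -0.50 ± 0.43, and Pfs2, the array's name for GINS2 of the helicase, had -0.48 ± 0.002. SLD5, another GINS subunit, was by contrast 0.10 ± 0.05. With probes averaged ASK was at -0.29 and TIMELESS at -0.31. Of the 19 fork genes 10 were lower in both replicates, against 30.1% of features.

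Of the 9 chromatin assembly genes 5 were lower in both replicates, against 30.1% of features. UHRF1, which guides DNA methylation to new strands, had -0.53 and -0.99, SLBP, which binds histone mRNAs, -0.33 and -0.77, CHAF1B, of the CAF-1 histone chaperone, -0.28 and -0.62, and ASF1A, another histone chaperone, -0.28 and -0.37. Averaged over its probes UHRF1 was at -0.36. NASP, ASF1B and DNMT1 were above 0 in both replicates (means 0.155, 0.033 and 0.072), but at -0.033, -0.157 and -0.005 under median centring. Among the 12 S phase kinases, cyclins and E2F genes 10 were lower in both replicates, against 30.1% of features. CCNA2, the S phase cyclin, was at -0.48 ± 0.13, E2F2 at -0.42 ± 0.17 and CCNE1 at -0.40 ± 0.22. CDC25A, the phosphatase that activates CDK2, was at -0.35 ± 0.17. Averaging probes put E2F2 at -0.17 and CDC25A at -0.23. None of these groups held a gene at least 2-fold lower in both replicates, against 0.238% of features.

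**Figure D5:**
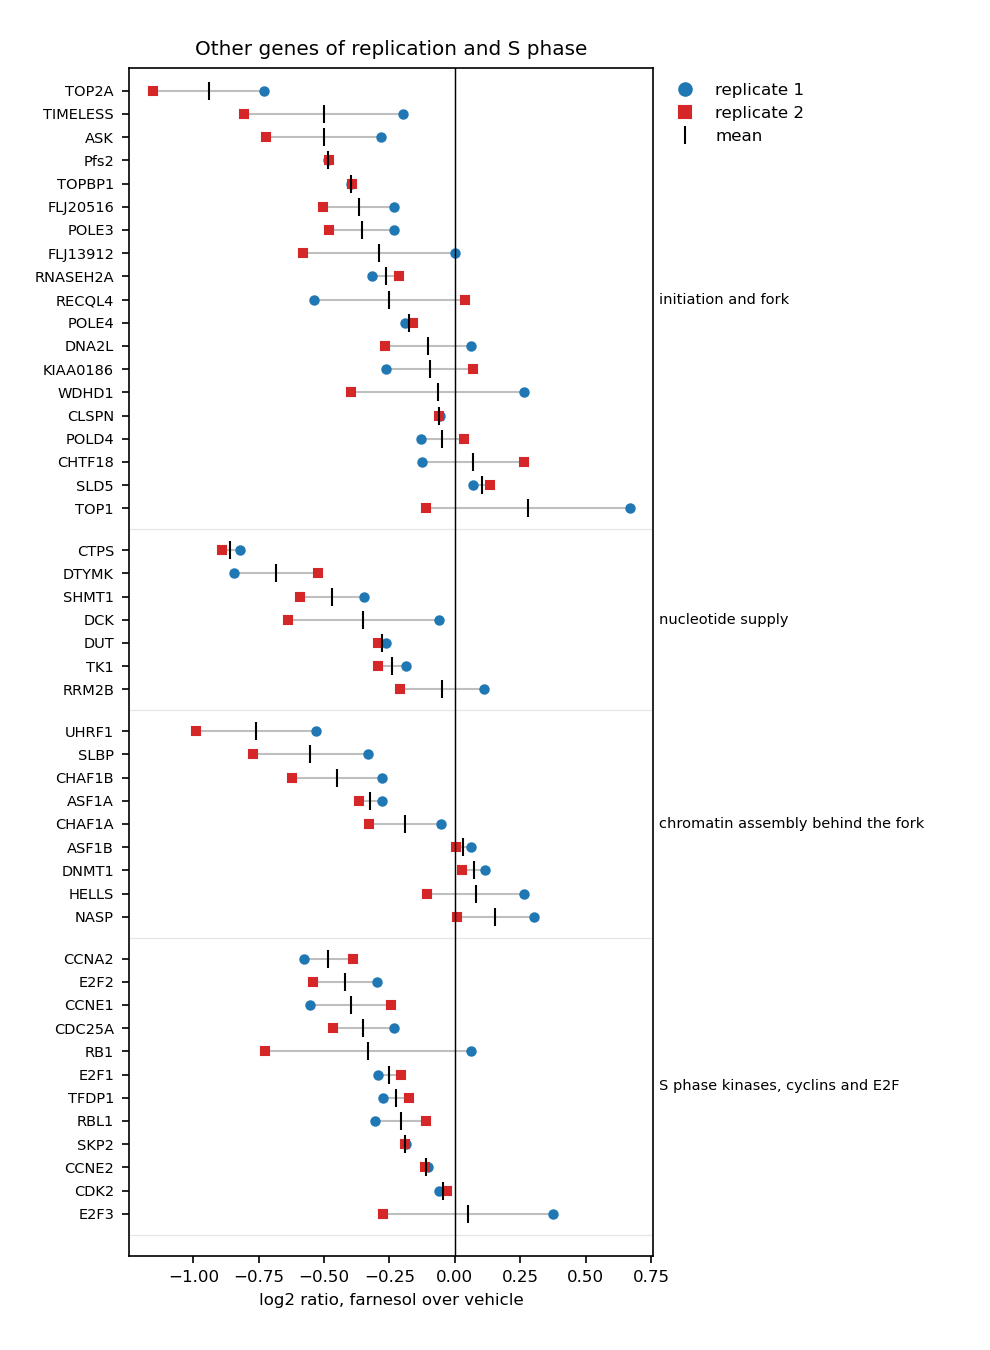
Log2 ratio of farnesol over vehicle (horizontal axis) for 47 of the other genes of replication and S phase, by group and mean; circles are replicate 1, squares replicate 2 and ticks their mean. TOP2A lies lowest at -0.94 and TOP1 highest at 0.28, with 0.67 in replicate 1 and -0.11 in replicate 2.

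As facts of the arrays, between 82.4% and 92.9% of probes were flagged well above background in a channel, and 0 member spots were saturated. Of the member probes 56 of 57 were flagged in both channels on all 4 arrays. The epithelial markers KRT8, KRT18 and KRT19 had vehicle intensities of 6599 to 23420, and CDH1 and TACSTD1 (EpCAM) 160.4 to 303.2. Markers of leukocytes (62.7 to 525.5), fibroblasts (86.4 to 243.7) and endothelium (70.8 to 302.5) were flagged well above background on all vehicle channels for 4 of 5, 5 of 5 and 5 of 5 genes, so the flag alone does not show that a gene was expressed.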

How the data were processed

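Per the file headers, arrays were read with Agilent Feature Extraction 8.1.1.1. The deposited intensity values are mean spot and median local background brightness, uncorrected, beside processed intensity values that were background-subtracted and dye-normalized. The deposited log10 ratio is Cy5 over Cy3, per the file headers, as are the other deposited flags. The authors deposited, per the file headers, a linear ratio and a p-value per probe for replicate 1, as 2 identical copies. Its log2 ratio had r = 0.9999 with the mean scanner log ratio of the replicate 1 arrays, and it names farnesol over vehicle, which sets the direction of all ratios.

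Intensities were corrected by normexp (offset 50) and normalized by loess within arrays in R 4.3.3 with limma 3.58.1, leaving out control and outlying spots. Ratios were turned to farnesol over vehicle, and the arrays of a replicate averaged (n = 2). Intensities printed include the offset and were scaled between arrays by Aquantile. A probe was tested if well above background in 1 condition in both replicates, and the brightest probe stood for a gene. Limma tested each mean against 0 (moderated, two-sided), with p-values adjusted by Benjamini-Hochberg over all features, 1 residual degree of freedom and 1.81 from moderation. The steps from the averaging of arrays on were run on simulated log2 ratios. Background correction, normalization, the filter and the choice of probe were not tested in this way. The number of arrays limits the precision, and duplicate experiments are all the labels say of independence. Members and lists were chosen with earlier results of these data known. Every member could be named. Those with full values had the largest mean ratio of their role with 1 sign on all arrays, were 2-fold lower, were higher in both replicates, or had discordant probes. RPA2, MCM2, CDC6 and others were named to complete their complexes. Of the other genes, up to 4 per group were named by the same measure, with 1 item not reported here, and SLD5, TOP1, NASP, ASF1B and DNMT1 after their values were seen. Alternatives were other background, normalization, filter and probe choices, a random block, and leaving out a replicate. Gene names are those of the array. The reference tables supplied are of the mouse and were not used, and no sequence or position is given.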

Additional observations from a re-analysis of the deposited data

How the results depend on the processing

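The counts of members lower in both replicates (25 to 32) and 2-fold lower in both (2 to 3, with PCNA added under median centring, against 0.476% of features there) stayed within 1.5 times of the reported ones under 7 other settings of the processing, and the members' median ran from -0.43 to -0.24. Adjusted calls depended on the model. With the 4 arrays kept apart and the replicate as a random block (estimated correlation 0.549), limma called 9 members and 17 other replication genes, against 0 and 0, and 2893 features in all. RPA1, RFC4, RFC5, PCNA, PRIM1, FEN1, LIG1, MCM3 and MCM7 were the 9. Each ratio is taken within a matched pair, so the reported test is itself a paired one. Under median centring ORC2L was -0.013, CDC6 -0.06, POLD2 -0.079, POLE -0.002, ASF1B -0.157, NASP -0.033 and DNMT1 -0.005, opposite to the reported sign, and RFC3 was 0.011 with a normexp offset of 0. Averaging the probes of POLD2 gave -0.04, and put RRM2 at -0.57. The median of the other replication genes was -0.32 with processed signals, -0.39 with median centring and -0.20 with probes of a gene averaged. With 1 replicate left out no test is possible, and the members' median was -0.42 to -0.08 and that of the other genes -0.29 to -0.23. RPA1 ran from -2.51 to -2.30 and RFC4 from -1.67 to -1.46 over the 7 settings. The cause of these shifts was not tested.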
